A study of Homo sapiens with 6 samples.

Results

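The BCL2 family sets the threshold for mitochondrial apoptosis, and its transcripts were followed in UWB1.289 cells exposed to a PARP inhibitor. The family was represented by 10 genes listed by symbol, of 63677 genes in the count table, and all 10 were found and passed the filter on low counts that left 21729 genes for testing. They comprised the pro-survival genes BCL2, BCL2L1 and MCL1, the effectors BAX and BAK1, and the BH3-only genes BBC3, PMAIP1, BCL2L11, BID and BIK. RNA had been sequenced from 3 samples treated with Olaparib at 4 µM for 24 h and from 3 samples given the vehicle DMSO for the same 24 h. The design text of the series gives 10 µM in place of 4 µM, whereas the sample labels and the study's methods give 4 µM. Both groups were the same line, UWB1.289, an ovarian cancer line that the study describes as BRCA1-deficient and the labels list with the genotype WT. The study describes its replicates as independent, but the sources used here do not say whether each RNA sample came from its own dish. The p values thus measure the spread between these samples of 1 line, which may be technical, and not variation between tumours.

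Pro-survival proteins hold the pore-forming effectors BAX and BAK1 in check at the mitochondrial outer membrane. BH3-only proteins carry a short helix, the BH3 domain, that docks into the groove of the pro-survival proteins or activates the effectors directly. Once the effectors permeabilise the membrane, cytochrome c is released and caspases are activated. DNA damage is a classical trigger of this pathway.

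Total counts lay between 35360458 and 39640775 per sample. The epithelial and ovarian markers listed for the label check had a summed level between 11918 and 12512 TPM, a unit of counts per exonic length scaled to the same sum in each sample. Of these 10 markers 9 were tested and 1 (PAX8) was higher after Olaparib, and WT1 had 8 counts in all samples together. KRT7, KRT8 and KRT18 were the highest of these markers, with means of 3575, 2097 and 4368 TPM, whereas CDH1 and MUC16 had 21.9 and 3.73 TPM. Markers of other cell types had lower sums, but the endothelial marker CDH5 was above CDH1, MUC16 and WT1. The 6 leukocyte markers summed to between 3.64 and 4.35 TPM after Olaparib and between 2.63 and 3.49 TPM after DMSO, with 0 of 5 tested genes passing and CD3E at 6 counts in total. The 5 fibroblast markers summed to between 2.56 and 3.69 TPM over all samples, with 0 of 2 tested genes passing. The 4 endothelial markers summed to between 26.2 and 28.5 TPM, of which the cadherin gene CDH5 alone had a mean of 25.3 TPM, and VWF passed at a mean of 0.511 TPM. PECAM1 and LUM had 0 counts. The part of these signals in the results was not tested.

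The feature that unites the 3 classes was looked for in the coding sequence of the canonical GENCODE transcript of each member. The BH3 core was searched as a leucine codon, 3 codons of any kind, a glycine or alanine codon, an aspartate codon, 1 further codon and a codon for a hydrophobic residue. This pattern was modelled on known BH3 domains, so its presence in the members describes them and is no test. It occurred in all 10 members, 1 time in each, and in 2291 of 20457 canonical coding sequences (11.2%). The stretches are shown because it is this helix of the BH3-only proteins that docks into the groove of the pro-survival proteins. The 24 bases of the core are in capitals with 3 flanking bases on either side, 5′ to 3′ on the coding strand.
BCL2: accCTCCGCCAGGCCGGCGACGACTTCtcc
BCL2L1: gcgCTGAGGGAGGCAGGCGACGAGTTTgaa
MCL1: accTTACGACGGGTTGGGGATGGCGTGcag
BAX: tgtCTCAAGCGCATCGGGGACGAACTGgac
BAK1: cagCTCGCCATCATCGGGGACGACATCaac
BBC3: cagCTGCGGCGGATGGCGGACGACCTCaac
PMAIP1: caaCTCAGGAGATTTGGAGACAAACTGaac
BCL2L11: gagTTGCGGCGTATTGGAGACGAGTTTaac
BID: cacCTCGCCCAGGTCGGGGACAGCATGgac
BIK: cggCTGGCCTGCATCGGGGACGAGATGgac

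On GRCh38 the 3 pro-survival stretches lay on the minus strand, in exon 2 of BCL2 (chr18:63318352-63318381), exon 2 of BCL2L1 (chr20:31721925-31721954) and exon 1 of MCL1 (chr1:150578868-150578897). The effector stretches lay in exon 3 of BAX (chr19:48955784-48955813, plus strand) and exon 4 of BAK1 (chr6:33575390-33575419, minus strand). Those of the BH3-only genes lay in exon 3 of BBC3 (chr19:47226582-47226611, minus strand), exon 2 of PMAIP1 (chr18:59902670-59902699, plus strand), exon 3 of BCL2L11 (chr2:111150100-111150129, plus strand), exon 4 of BID (chr22:17739418-17739447, minus strand) and exon 3 of BIK (chr22:43127713-43127742, plus strand). None of the 10 stretches crossed an exon junction. The coding sequences around them ran from 54 codons in PMAIP1 to 350 codons in MCL1.

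The levels of the members were compared per length, as TPM over all 6 samples. BCL2L1, which encodes BCL-XL, was highest with 294 ± 5.53 TPM (SD, n = 6), ahead of MCL1 with 253 ± 6.36 TPM. BCL2, the founding member of the family, was lowest with 0.970 ± 0.098 TPM. The mean level of BCL2L1 was thus 303 times that of BCL2, and both are pro-survival genes. Of the 20867 tested genes with a length, 98.0% had a lower level than BCL2L1, 97.5% a lower level than MCL1 and 29.6% a lower level than BCL2.

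The effector BAX had 81.2 ± 3.58 TPM, whereas BAK1, its partner in pore formation, had 21.3 ± 0.709 TPM. Among the BH3-only genes, BID, whose protein is activated by cleavage in death receptor signaling, was highest with 72.9 ± 2.59 TPM. PMAIP1, which encodes NOXA, an antagonist mainly of MCL1, followed with 63.6 ± 1.61 TPM. The remaining BH3-only genes were BIK with 40.2 ± 2.38 TPM, BCL2L11 (BIM) with 14.4 ± 0.729 TPM and BBC3 (PUMA) with 9.73 ± 0.852 TPM. BIM and PUMA are known as potent BH3-only proteins that bind all main pro-survival members.

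The ranges of neighbours in this order did not overlap, except for BAX (76.4 to 85.7 TPM) and BID (69.3 to 77.1 TPM). BAX was the higher of this pair in 6 of 6 samples. With the length of the canonical transcript in place of all exonic bases, an alternative chosen after the data were seen, the order of the 10 members did not change. The mean levels of BIK and BAK1 were then 23.5 and 12.7 TPM. The level of BAX was then 154.5 TPM, since its canonical transcript has 795 bases and all its annotated exons together 2587. The ranges of BAX (146 to 164 TPM) and BID (82.5 to 91.5 TPM) then lay apart, whereas those of BCL2L11 (10.3 to 11.9 TPM) and BBC3 (8.40 to 10.9 TPM) overlapped. Levels between genes also depend on which transcripts a gene uses, which counts per gene do not show. They depend as well on how reads in overlaps with other genes were counted, as described for BCL2L1 below.

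**Figure D1:**
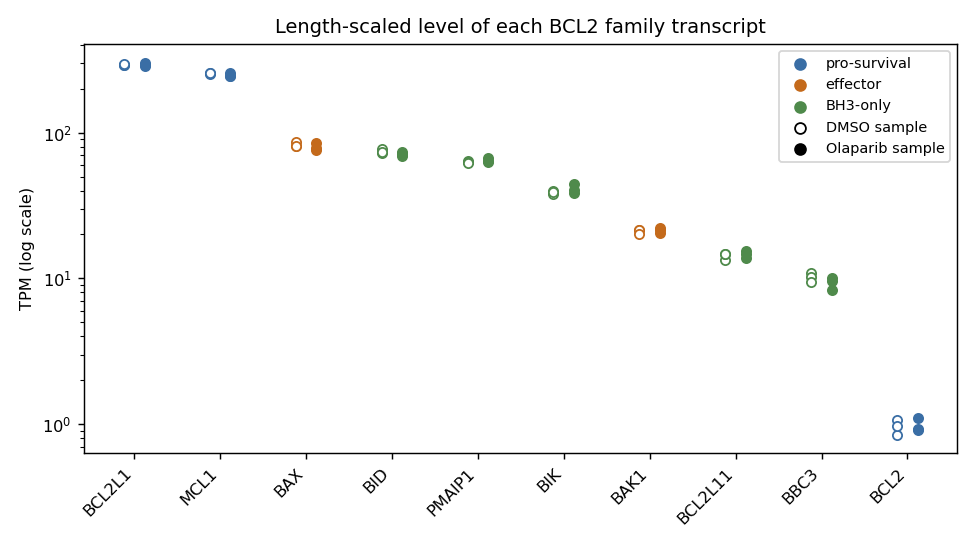
Level of each BCL2 family transcript in TPM (log axis) in the 3 DMSO samples (open points) and the 3 Olaparib samples (filled points), ordered by the mean over 6 samples and colored by class. BCL2L1 and MCL1 lie highest and BCL2 lowest, and the ranges of open and filled points overlap in each gene.

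Olaparib was compared with DMSO to ask whether the transcripts of the family move with PARP inhibition. None of the 10 passed a Benjamini-Hochberg adjusted p of 0.05, taken over all genes tested with edgeR's quasi-likelihood F test, where 3.36% of all genes tested passed (2.15% higher and 1.21% lower after Olaparib). Among genes with a mean of at least 100 normalized counts, which holds for all 10 members, 5.56% passed. The count was also 0 with DESeq2's Wald test and with limma voom. At an unadjusted p under 0.05, 0 of 10 members passed against 14.8% of all genes tested. When a change of more than 1.2-fold in either direction was also asked for, 1.21% of all genes tested passed, again with 0 members. In none of the 10 did the 3 Olaparib samples lie on one side of the 3 DMSO samples, as they did in 19.3% of all genes tested. The exact two-sided permutation test over samples gave p values between 0.3 and 1 for the members, where 0.1 is the smallest that 3 samples against 3 allow.

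The log2 changes of the 10 members lay between -0.12 and 0.078, with a median of 0.013, beside a median of -0.0042 over all genes tested. Their standard errors lay between 0.028 and 0.12. The 95% intervals from the edgeR fit lay inside a 1.2-fold change in either direction for 8 members and reached past it for BCL2 and BBC3. Over all 10 members, the intervals reached from 0.827-fold for BBC3 to 1.21-fold for BCL2. The intervals were narrower for the members with most counts, at 0.939-fold to 1.02-fold for MCL1 and 0.961-fold to 1.04-fold for BCL2L1. In bulk RNA, fewer cells of a kind and less RNA per cell cannot be told apart, and counts per gene do not separate splice forms such as the long and short products of BCL2L1 and MCL1.

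**Figure D2:**
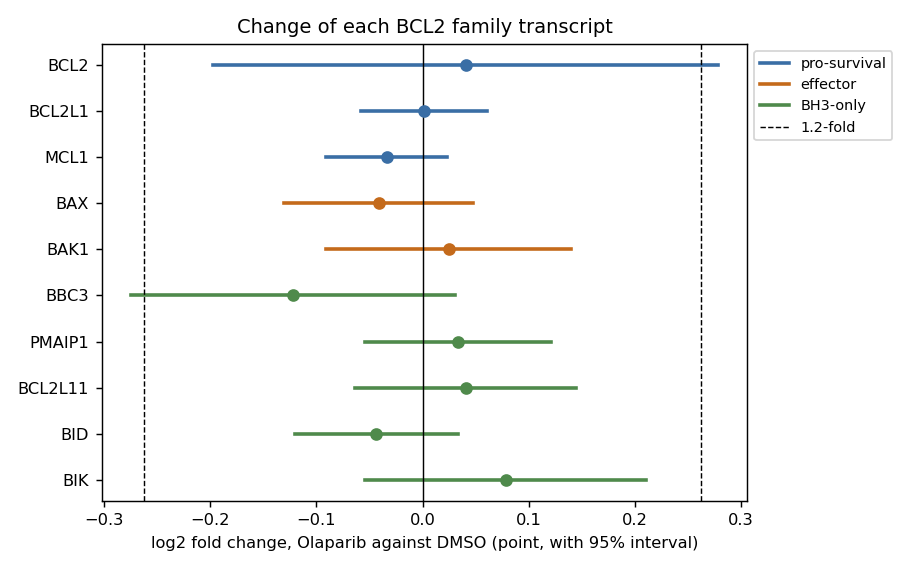
Log2 fold change of each BCL2 family transcript, Olaparib against DMSO (point), with its 95% interval from the edgeR fit (bar, 3 samples per group). The dashed lines mark a 1.2-fold change, and the intervals of all 10 genes cross 0.

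Among the pro-survival genes, MCL1 encodes a short-lived protein that depends on continuous synthesis. It had 16460, 15594 and 15856 normalized counts (counts scaled to a common library size) after Olaparib and 16117, 16252 and 16679 after DMSO. The highest Olaparib sample lay above 2 of the 3 DMSO samples, so the groups overlapped. The means were 15970 ± 444 and 16349 ± 293 (SD, n = 3 each), a log2 change of -0.034 (SE 0.028, 95% interval -0.091 to 0.023, edgeR adjusted p = 0.639).

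BCL2L1 had 12383, 13103 and 12593 normalized counts with Olaparib, against 12439, 12595 and 13006 with DMSO. The highest and the lowest of the 6 values both came from Olaparib samples. Its log2 change was 0.0014 (SE 0.029, interval -0.058 to 0.060, edgeR adjusted p = 0.989). Of the exonic bases of BCL2L1, 41.3% are overlapped by ABALON, a gene on the opposite strand. The libraries were stranded, but the strand setting of the counting is not given in the sources used here. How reads of the overlapped bases were assigned is thus not known, and they may have been counted together or left out.

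BCL2 had 143, 121 and 118 normalized counts with Olaparib, against 136, 110 and 126 with DMSO. The highest value came from an Olaparib sample and the lowest from a DMSO sample, with the others in between. With the fewest counts of the family, its log2 change of 0.041 had the widest interval, -0.20 to 0.28 (SE 0.12, edgeR adjusted p = 0.924).

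The effector BAX had 2026, 2260 and 2095 normalized counts with Olaparib, against 2116, 2281 and 2169 with DMSO. Replicate 2 was the highest sample of both groups. The log2 change was -0.042 (SE 0.044, interval -0.13 to 0.047, edgeR adjusted p = 0.735).

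BAK1 had 467, 491 and 504 normalized counts with Olaparib, against 482, 491 and 465 with DMSO. The groups overlapped, with a log2 change of 0.025 (SE 0.057, interval -0.091 to 0.14, edgeR adjusted p = 0.899). In both effectors the group means differed by less than the SD of either group.

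BBC3 (PUMA), a BH3-only gene known to be induced by DNA damage in many cells, had 271, 328 and 315 normalized counts with Olaparib, against 348, 334 and 314 with DMSO. Olaparib replicate 1 was the lowest of the 6 samples, and the other Olaparib samples lay above the lowest DMSO sample. The means were 305 ± 29.8 and 332 ± 17.3, and the log2 change of -0.12 was the one farthest from 0 in the family (SE 0.075, interval -0.27 to 0.030, edgeR adjusted p = 0.481). Without Olaparib replicate 1 this value was -0.043, and without Olaparib replicate 2 it was -0.18, with edgeR adjusted p values of 0.854 and 0.349.

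PMAIP1 (NOXA), also known as a stress-induced gene, had 1494, 1408 and 1436 normalized counts after Olaparib. The DMSO samples lay close together, with 1410, 1417 and 1412. The lowest Olaparib sample was below all DMSO samples and the other two were above them. The log2 change was 0.034 (SE 0.043, interval -0.054 to 0.12, edgeR adjusted p = 0.789).

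BCL2L11 (BIM), which FOXO factors are known to induce, had 1062, 1016 and 962 normalized counts with Olaparib, against 905, 1017 and 1030 with DMSO. The lowest value came from a DMSO sample and the highest from an Olaparib sample, with overlap in between. Its log2 change was 0.041 (SE 0.051, interval -0.063 to 0.14, edgeR adjusted p = 0.785). The gene MIR4435-2HG overlaps 10.8% of its exonic bases on the opposite strand.

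BID, the link from death receptors to mitochondria, had 3142, 3366 and 3272 normalized counts with Olaparib, against 3439, 3281 and 3362 with DMSO. The log2 change was -0.044 (SE 0.038, interval -0.12 to 0.033, edgeR adjusted p = 0.660). BIK, whose protein resides mainly at the endoplasmic reticulum, had 436, 396 and 378 normalized counts with Olaparib, against 367, 390 and 388 with DMSO. In BIK the Olaparib samples held the highest value and also 1 value below 2 DMSO samples, with a log2 change of 0.078 (SE 0.065, interval -0.054 to 0.21, edgeR adjusted p = 0.640).

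**Figure D3:**
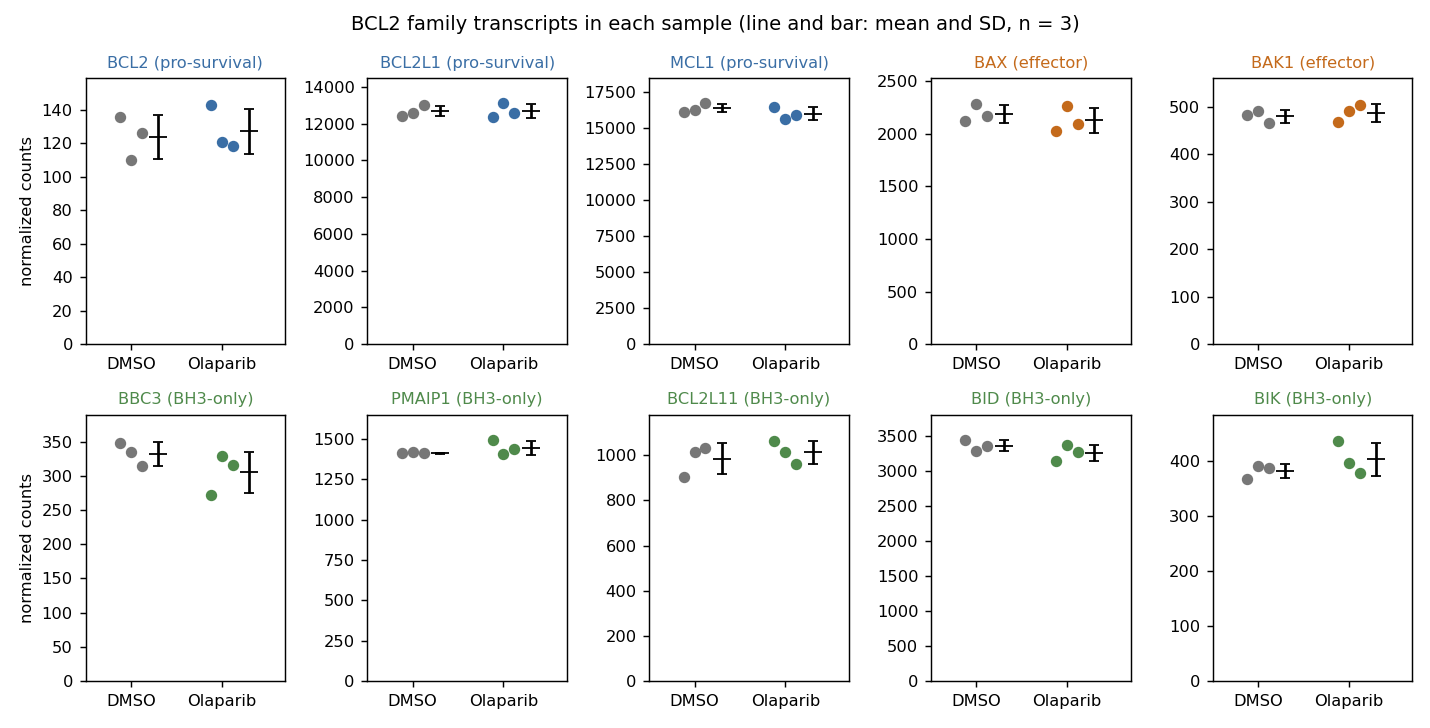
Normalized counts of the 10 BCL2 family transcripts in each sample, with the DMSO samples in grey and the Olaparib samples in the color of the class (replicates 1 to 3 from left to right). Black lines and bars give the mean and SD of 3 samples, all axes start at 0, and the groups overlap in every panel.

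The classes were next set side by side, as a description with no test. The summed level of the 3 pro-survival genes was 544 ± 4.91 TPM after Olaparib and 552 ± 5.40 TPM after DMSO (SD, n = 3 each). The 2 effectors summed to 101 ± 4.70 TPM after Olaparib and 104 ± 3.31 TPM after DMSO. The 5 BH3-only genes summed to 201 ± 3.58 TPM after Olaparib and 201 ± 2.37 TPM after DMSO. The differences between the groups were -0.021, -0.035 and 0.0013 on the log2 scale for the 3 classes in this order, and the samples of the groups overlapped in each. With the canonical transcript lengths the pro-survival sums no longer overlapped, at 510 ± 5.75 TPM after Olaparib and 519 ± 4.39 TPM after DMSO. The log2 difference was then -0.0245, and each of the 3 genes overlapped by itself in normalized counts. As single genes, 19.3% of all genes tested had groups that did not overlap. The effector sums were then 164 ± 7.98 TPM after Olaparib and 170 ± 6.01 TPM after DMSO, and the BH3-only sums 173 ± 2.24 and 175 ± 2.76 TPM.

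The ratio of pro-survival to effector transcripts was 5.64, 5.15 and 5.36 in the Olaparib samples and 5.37, 5.09 and 5.52 in the DMSO samples. These values overlapped, with means of 5.38 ± 0.248 and 5.33 ± 0.218. With canonical lengths this ratio was 3.11 ± 0.153 after Olaparib and 3.06 ± 0.127 after DMSO, and the groups overlapped again. The ratio of pro-survival to BH3-only transcripts was 2.68, 2.72 and 2.73 after Olaparib and 2.71, 2.73 and 2.80 after DMSO, which overlapped as well. Its means were 2.71 and 2.75 with all exonic bases and 2.95 and 2.97 with canonical lengths. The ratio of BH3-only to effector transcripts had means of 1.99 after Olaparib and 1.94 after DMSO, and of 1.05 and 1.03 with canonical lengths. BCL2L1 and MCL1 made up 34.6% and 29.7% of the TPM of the 10 members, so the pro-survival sum mostly follows these 2 genes. The effector sum mostly follows BAX, with 9.54% against 2.50% for BAK1. The BH3-only sum was spread more evenly, with 8.56% for BID, 7.48% for PMAIP1 and 4.72% for BIK. Of the log2 changes, 2 of 3 were above 0 in the pro-survival class, 1 of 2 among the effectors and 3 of 5 among the BH3-only genes, and the class medians were 0.0014, -0.0085 and 0.034.

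The pathway around the members was described with 7 lists of 83 genes, all of which were matched and 79 of which were tested. Of the 79, 5 rose and 1 fell in the edgeR test at the 0.05 threshold, beside 2.15% and 1.21% of all genes tested. Among genes with a mean of at least 100 normalized counts, 5.56% passed in either direction, but not all of the 79 reach that mean. Each list gene that passed changed by less than 1.2-fold, so none met the 1.2-fold condition used for the members. The other 14 genes of the BCL2 family, such as BCL2L2, BAD and BMF, gave 12 genes tested, of which 0 passed in either direction. The median log2 change of these 12 was 0.010. BCL2A1 and BCL2L14 had 4 counts each in all samples together, too few to measure a change. The 11 genes of the apoptosome and caspases list, which includes the cytochrome c gene CYCS, had a median log2 change of -0.0082, and 0 passed. The death receptor list had 13 genes tested with a median of -0.018, of which 0 passed. Of its ligand genes, FASLG had 8 counts in total, whereas TNFSF10 had a mean of 7.04 TPM. TNFSF10 had a log2 change of 0.26 (SE 0.080, edgeR adjusted p = 0.068, unadjusted p = 0.0027), with no overlap of the groups. The 8 genes of MCL1 turnover and the mitochondrial porins had a median of 0.014, and 0 passed. An unadjusted p under 0.05, which 14.8% of all genes tested had, was found for 0 of 12 genes of the other BCL2 family, 1 of 11 of the apoptosome and caspases, 1 of 13 of the death receptor list and 0 of 8 of the MCL1 turnover list. It was found for 4 of 6 inhibitor of apoptosis genes, 5 of 21 DNA damage response genes and 6 of 8 of the other transcription factors, the lists described next.

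The inhibitor of apoptosis proteins act on caspases downstream of the BCL2 family or in cell division. Of 6 genes tested 3 rose, each by less than 1.2-fold, and 0 fell, beside 2.15% and 1.21% of all genes tested. BIRC6, which encodes a giant ubiquitin ligase that restrains caspases, had 4369, 4085 and 4183 normalized counts with Olaparib, against 3756, 3621 and 3390 with DMSO. Every Olaparib sample of BIRC6 lay above every DMSO sample, and the log2 change was 0.23 (SE 0.039, edgeR adjusted p = 1.9e-04). BIRC5 (survivin), a subunit of the chromosomal passenger complex of mitosis, rose from 5211 ± 130 to 5894 ± 153 normalized counts. Its log2 change was 0.18 (SE 0.033, edgeR adjusted p = 7.3e-04). BIRC3, an NF-kB-induced ubiquitin ligase of the TNF receptor complex, rose from 1120 ± 71.8 to 1309 ± 101 normalized counts. Its log2 change was 0.23 (SE 0.052, edgeR adjusted p = 0.00854). The adjusted p of BIRC3 was 0.0539 without Olaparib replicate 1, 0.0967 without DMSO replicate 2 and 0.0529 without DMSO replicate 3. XIAP, the direct caspase inhibitor, had a log2 change of -0.082 (edgeR adjusted p = 0.273, unadjusted p = 0.033). Every Olaparib sample of XIAP lay below every DMSO sample. BIRC2 had a log2 change of -0.0040 (edgeR adjusted p = 0.985) and NAIP had 19 counts in total. BIRC7 had 8 counts and was not tested.

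**Figure D4:**
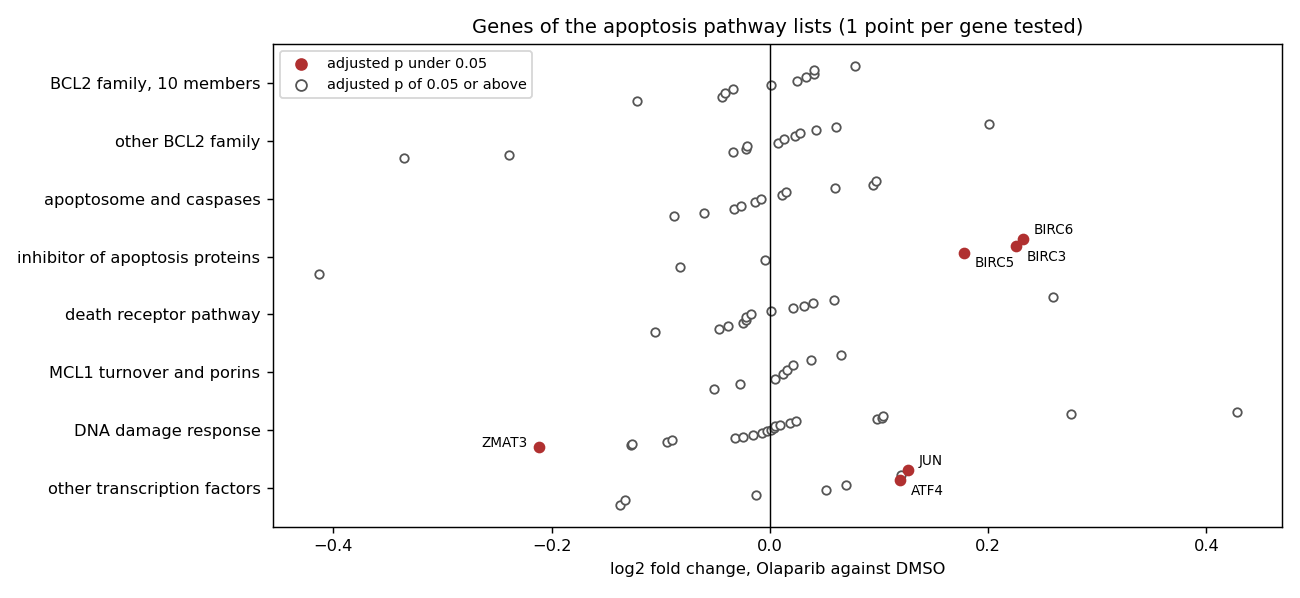
Log2 fold change, Olaparib against DMSO, of the 10 BCL2 family members and of the 79 tested genes of 7 pathway lists, with 1 point per gene. Filled points passed an adjusted p of 0.05 in the edgeR test, and BIRC3, BIRC5 and BIRC6 lie to the right, ZMAT3 to the left, and ATF4 and JUN near 0.12 and 0.13.

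A list of DNA damage response genes was described because BBC3, PMAIP1 and BAX are known to respond to DNA damage. It holds genes such as CDKN1A, MDM2 and ZMAT3 but not the kinases ATM and ATR, so it covers only a part of that response. The study inferred altered kinases of the ATM-ATR axis from phosphorylation sites, and these RNA counts do not measure kinase activity. Of 21 genes tested, 0 rose and 1 fell, beside 2.15% and 1.21% of all genes tested, and the median log2 change was 0.00066. ZMAT3, the gene that fell, encodes an RNA-binding zinc finger protein. It had 1135, 986 and 1064 normalized counts with Olaparib, against 1317, 1198 and 1176 with DMSO, with no overlap. Its log2 change was -0.21 (SE 0.051, edgeR adjusted p = 0.0128), and the adjusted p was 0.104 without Olaparib replicate 2, 0.0565 without Olaparib replicate 3 and 0.182 without DMSO replicate 1.

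CDKN1A (p21), a cell cycle inhibitor and common readout of the DNA damage response, had 142, 135 and 153 normalized counts with Olaparib, against 123, 105 and 127 with DMSO. The groups did not overlap, but the log2 change of 0.28 (SE 0.11) missed the threshold, with 0.208 as its adjusted p in edgeR. MDM2, which encodes a ubiquitin ligase, had a log2 change of -0.13 (SE 0.046, edgeR adjusted p = 0.144). The adjusted p of MDM2 was 0.0109 without Olaparib replicate 1, where the log2 change was -0.19. Of the exonic bases of MDM2, 14.7% overlap other genes.

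Of 8 other transcription factors known to act on BH3-only genes, 2 rose and 0 fell, beside 2.15% and 1.21% of all genes tested. Their median log2 change was 0.060. At an unadjusted p under 0.05 in the edgeR test the directions were mixed. FOXO1 and MYC had log2 changes of 0.12 and 0.069, whereas DDIT3 and E2F1 had -0.14 and -0.13. ATF4, the main factor of the integrated stress response, had 10664, 11096 and 11186 normalized counts with Olaparib, against 9819, 10197 and 10319 with DMSO. Its log2 change was 0.12 (SE 0.030, edgeR adjusted p = 0.0159). JUN, a subunit of AP-1, had 6205, 6543 and 6207 normalized counts with Olaparib, against 5716, 5801 and 5848 with DMSO. The groups of both genes did not overlap. For JUN the log2 change was 0.13 (SE 0.032, edgeR adjusted p = 0.0176). Neither call held in every fit with 1 sample left out, although the log2 change stayed between 0.10 and 0.14 for ATF4 and for JUN. The adjusted p of ATF4 reached 0.0618 without Olaparib replicate 2, 0.123 without Olaparib replicate 3, 0.105 without DMSO replicate 1 and 0.0645 without DMSO replicate 2. That of JUN reached 0.121 without Olaparib replicate 2, 0.0535 without DMSO replicate 1, 0.0865 without DMSO replicate 2 and 0.0643 without DMSO replicate 3.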

How the data were processed

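The authors deposited whole-number counts of reads per gene without normalization, made, according to the study's methods and the labels, with Trimmomatic, STAR on GRCh38, Picard and featureCounts. The strand setting and the removal of duplicates are not given in the sources used here. Samples were grouped by their titles, 3 Olaparib and 3 DMSO. The 10 members and the 7 pathway lists were chosen with earlier results of these data known.

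Genes with more than 10 counts in total were kept, normalized by TMM and tested with edgeR 4.0.16 (quasi-likelihood, Benjamini-Hochberg, no replicate block) in R 4.3.3. Standard errors and 95% intervals came from that fit. TPM were computed from counts and the exonic length of each gene in GENCODE release 44, which named 81.9% of the identifiers. Alternatives used DESeq2 1.42.0 and limma 3.58.1. The code was also run on simulated counts drawn from the fit's own estimates. The changes put in were larger than that of any member or list gene, so this run bears on none of them. Chi-square per degree of freedom between replicates was 1.81 to 4.11, so no library was counted as a duplicate. Intervals cover counting error and the spread of these samples only. Besides the members, the text names list genes that passed, list genes with 10 counts or fewer, and MDM2 and CDKN1A. BCL2L2, BAD and BMF stand as examples of their list. XIAP, BIRC2, NAIP, TNFSF10, FOXO1, MYC, DDIT3 and E2F1 were added after their values were seen. One gene planned for the lists is not reported here and was left out of their counts. Protein stretches had also been planned, and coding bases are shown instead because a protein table was not used here.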

Additional observations from a re-analysis of the deposited data

How the results depend on the processing

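The count of BCL2 family members past the threshold was 0 under each of these alternatives: DESeq2, limma voom, size factors, upper-quartile factors, both other filters, the replicate block, the 1.2-fold condition and leaving out each of the 6 samples. Over 130 values of single members, the smallest adjusted p was 0.284 and the log2 fold changes lay between -0.18 and 0.12. BCL2L1 changed sign with upper-quartile factors (-0.0076) and with filterByExpr (-0.00084). With one sample left out, sign changes occurred for BCL2 (-0.047 to 0.11), BCL2L1 (-0.021 to 0.021), BAK1 (-0.0025 to 0.057) and BCL2L11 (-0.013 to 0.075), all near 0. The log2 differences between Olaparib and DMSO in the class sums and ratios moved by less than the replicate SD under every alternative tried. The sums and ratios themselves moved with the transcript length, as given beside them.

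Over all genes tested, 730 passed, against 262 with the 1.2-fold condition and 398 to 870 with one sample left out. Of the 83 list genes 6 passed, and 3 to 7 with one sample left out. For the DNA damage response list the range was 0 to 3, and for the other transcription factors 0 to 2. With the replicate number as a block, 1322 of all genes and 10 list genes passed, with 1 of the death receptor list, 2 of the DNA damage response list and 4 of the other transcription factors, and MDM2 reached an adjusted p of 0.0481. Deviations from the group means correlated at r = -0.20, 0.26 and -0.32 between same-numbered samples. Between samples of different numbers, r lay between -0.38 and 0.48. With 3 samples per group these values constrain each other, so they cannot tell whether the numbers pair the samples. The cause of these shifts was not tested.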
